A study of Mus musculus with 4 samples.

Results

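The postsynaptic density is the protein-rich layer beneath the membrane of excitatory synapses, and 9 genes for its scaffold proteins are described here: Shank1, Shank2, Shank3, Dlg1, Dlg2, Dlg3, Dlg4, Dlgap1 and Dlgap2. They were chosen by name, with earlier results of these data known, and all 9 are among the 20211 gene symbols listed in every library. RNA of hippocampal nuclei was counted in 4 mouse libraries, 1 per genotype. The genotypes, spelled as in the labels, are Wild type, Total/global MAGL-KO, Astrocyte specific MAGL-KO and Neuron specific MAGL-KO, and the libraries are called wild-type, total knockout, astrocyte knockout and neuron knockout below. MAGL, monoacylglycerol lipase, is encoded by Mgll and breaks down the endocannabinoid 2-arachidonoylglycerol. The labels do not give the age of the mice, the Cre lines behind the cell-type knockouts, any treatment, or how many animals went into a library. Values are listed in the order wild type, total knockout, astrocyte knockout, neuron knockout unless stated otherwise.

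Glutamate receptors in the spine are held in place by layers of scaffold proteins. The membrane-associated guanylate kinases encoded by the Dlg genes bind receptors and receptor-associated proteins just under the membrane through their PDZ domains. The proteins encoded by the Dlgap genes bind the guanylate kinase region of these proteins and link them to the deeper Shank proteins, which in turn bind Homer proteins and connect to the actin cytoskeleton. Endocannabinoids are made on the postsynaptic side of such synapses and act on receptors of the presynaptic terminal.

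A level is given in CPM, the UMIs (counted molecules) of a gene as a part of all UMIs of one class in one library, on the usual scale of that unit. Each genotype has 1 library and therefore no replicate and no test, and each interval is a 95% counting interval that holds no spread between animals. All 3 knockout libraries are compared with the same wild-type library. The libraries held 9369, 31243, 10731 and 8945 barcodes, with 81623644 to 193307038 UMIs each and a median of 5456 to 8904 UMIs per barcode. After filters on genes, mitochondrial UMIs and doublets, 51320 nuclei were kept. The doublet rate expected by the caller was set in proportion to the barcodes of a library, so it was highest for the total knockout library. The total knockout library stood apart: doublets were called for 23.5% of its barcodes against 1.72% to 5.68% in the others, its depth was the lowest, and 19158 of its nuclei were assigned male and 3 female, while the others held both sexes in like numbers. It also held 734 medium spiny neurons and 146 thalamic neurons, types from outside the hippocampus, against 32, 0 and 1 and against 1, 21 and 0 in the wild-type, astrocyte knockout and neuron knockout libraries, and the part of this in its ratios was not tested. Pairs of libraries shared 108 to 466 barcodes, 1.21% to 4.63% of the smaller library. Mgll was counted in every library, with 120.7, 103.1, 139.4 and 129.9 CPM in dentate granule neurons and 375.0, 283, 263 and 462 CPM in astrocytes. The deleted part of Mgll is not given, so these values do not check the labels.

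Classes were named from marker genes of clusters, so a class name means that its nuclei resemble that type on these markers. Dentate granule neurons numbered 1948, 4301, 2103 and 1769 nuclei, CA1 neurons 1005, 1947, 1789 and 1193, CA2/CA3 neurons 575, 1289, 1116 and 651, and inhibitory neurons 1002, 2815, 1106 and 1207. The members were left out of the clustering, so their levels did not help to define the classes. Inhibitory neurons were split further into Pvalb, Sst, Vip, Cck and Lamp5 neurons by clusters.

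The genes differ widely in length, which matters for nuclear RNA that is rich in introns. In GRCm38 (mm10) Dlg2 spans 1973 kb at chr7:90476672-92449247, Dlgap1 852 kb at chr17:69969073-70821413, Dlgap2 752 kb at chr8:14095865-14847680, Shank2 423 kb at chr7:144001928-144424494 and Dlg1 212 kb at chr16:31663443-31875129. The compact members are Shank3 with 60.6 kb at chr15:89499623-89560261, Dlg3 with 50.7 kb at chrX:100767722-100818410, Shank1 with 50.3 kb at chr7:44310253-44360572 and Dlg4 with 30.6 kb at chr11:70016942-70047522. All lie on the forward strand. The sources used here do not say whether the counting used strand, so reads of an antisense gene within a span cannot be told apart from those of the member. Such counted genes lie in Shank1 (1700008O03Rik), Shank2 (Gm14372), Shank3 (Gm15609), Dlg2 (4930567K12Rik), Dlgap1 (5031415H12Rik) and Dlgap2 (C030037F17Rik), and none lies in Dlg1, Dlg3 or Dlg4.

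One promoter of each family is printed, for the members Shank3, Dlg1 and Dlgap1, as the window before the first annotated start of each gene, and Dlg1 has 3 further RefSeq starts and Dlgap1 1 further start, not printed. Each line is the 250 bases before a RefSeq start site in GRCm38.p6, forward strand, 5′ to 3′, at chr15:89499358-89499607, chr16:31663193-31663442 and chr17:69968823-69969072. Capitals mark GGGCGG on either strand, the core letters bound by Sp factors.

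Shank3: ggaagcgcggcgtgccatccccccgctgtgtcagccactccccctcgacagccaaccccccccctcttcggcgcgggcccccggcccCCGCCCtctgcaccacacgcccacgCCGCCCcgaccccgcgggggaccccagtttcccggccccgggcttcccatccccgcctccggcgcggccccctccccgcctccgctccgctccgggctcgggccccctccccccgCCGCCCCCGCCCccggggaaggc

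Dlg1: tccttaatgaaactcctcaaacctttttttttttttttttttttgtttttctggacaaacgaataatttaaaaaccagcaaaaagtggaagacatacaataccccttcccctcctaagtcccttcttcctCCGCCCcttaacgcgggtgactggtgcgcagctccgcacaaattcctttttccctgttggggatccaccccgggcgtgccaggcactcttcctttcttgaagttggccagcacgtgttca

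Dlgap1: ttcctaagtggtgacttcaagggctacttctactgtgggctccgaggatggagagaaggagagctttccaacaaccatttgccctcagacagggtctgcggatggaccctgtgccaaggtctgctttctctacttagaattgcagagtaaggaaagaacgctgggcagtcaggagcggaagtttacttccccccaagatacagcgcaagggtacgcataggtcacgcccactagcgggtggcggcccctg

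The Shank3 window is 82.4% G or C with 31 CG pairs and 4 matches to GGGCGG. That of Dlg1 is 46% G or C with 9 CG pairs, 1 GGGCGG and 1 CACGTG, an E-box. The Dlgap1 window is 55.2% G or C with 9 CG pairs and no GGGCGG. Over 32851 RefSeq windows of the same length the median was 52.4% G or C and 6 CG pairs, 32.7% held GGGCGG and 6.02% held CACGTG. Among 15 windows of the 6 members that matched the table, 5 held GGGCGG, a share near that of all windows. The 3 further Dlg1 windows were 68.8%, 40% and 30.8% G or C, so the windows of this 1 gene also differed widely. A match is a description of the letters.

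Shank1, a scaffold of the deep layer of mature spines, was highest in CA1 neurons and low in dentate granule neurons. Its level in CA1 neurons was 161, 190, 199.7 and 215 CPM, in CA2/CA3 neurons 120.9, 134.5, 140.3 and 162 CPM, in inhibitory neurons 116, 119.6, 122 and 146 CPM, and in dentate granule neurons 66.0, 74.8, 83.1 and 86.8 CPM. No library of the dentate granule class reached any library of the other 3 classes. The dentate level was 0.394 to 0.416 times the CA1 level within a library. Among inhibitory types the medians over the 4 libraries ran from 104 CPM in Sst neurons to 136 CPM in Cck neurons. Neighbours in that order overlapped, while Sst neurons lay below Pvalb and Cck neurons in every library.

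Shank2, which is spread over a longer gene and joins the same layer, was high in hippocampal excitatory classes and low in Pvalb and Sst neurons. Levels in CA1 neurons were 271, 277, 302 and 292 CPM, in CA2/CA3 neurons 255, 269, 291 and 282 CPM, and in dentate granule neurons 213, 216, 232 and 238 CPM. In inhibitory neurons the level was 109, 126, 112 and 116 CPM, and the CA1 level was 2.2 to 2.69 times as high within a library. The inhibitory types were themselves far apart. Vip neurons held 205, 239.5, 219.8 and 199.6 CPM and Pvalb neurons 65.2, 77.3, 62.1 and 64.9 CPM, a Pvalb to Vip ratio of 0.282 to 0.325 with no overlap.

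Shank3, the member known for its loss in Phelan-McDermid syndrome, followed another order. It was highest in mossy cells, excitatory neurons of the dentate hilus, at 100.2, 109.6, 127 and 132 CPM, although these numbered 29 to 69 nuclei per library. CA2/CA3 neurons held 95.02, 96.8, 99.0 and 105 CPM, ranges that overlap those of mossy cells. CA1 neurons held 66.0, 66.0, 73.9 and 76.0 CPM, and dentate granule neurons 55.02, 65.1, 67.8 and 67.8 CPM. Shank3 was thus 0.682 to 0.746 times as high in CA1 as in CA2/CA3 neurons within a library, whereas Shank1 was 1.33 to 1.42 times as high in CA1. Pvalb neurons had the lowest neuronal median, with 49.9, 56.3, 51.8 and 58.8 CPM, and overlapped Lamp5 neurons, which ran from 40.9 to 71.2 CPM.

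With these orders the make-up of Shank transcripts differed between some classes and not between others. CA2/CA3 neurons and excitatory neurons of no finer type were alike. Their medians were 26.7% and 27.1% for Shank1, 53.9% and 53.7% for Shank2, and 19.2% and 20.1% for Shank3, with overlapping ranges. A share of the family's UMIs depends on gene length, so shares are compared between classes and not between genes. Shank2 made up a median of 60.7% of Shank UMIs in dentate granule neurons (lowest library 60.5%, highest 63.8%) and 25.8% in Pvalb neurons (24.0% to 30.7%). Shank1 made up 21.4% in dentate granule neurons, 35.2% in CA1 neurons and 53.4% in Pvalb neurons (46.9% to 54.6%). The Shank3 share was 12.9% in CA1 neurons, 26.8% in mossy cells and 28.2% in Sst neurons. The ranges of Pvalb and dentate granule neurons do not overlap for Shank1 or Shank2.

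**Figure D1:**
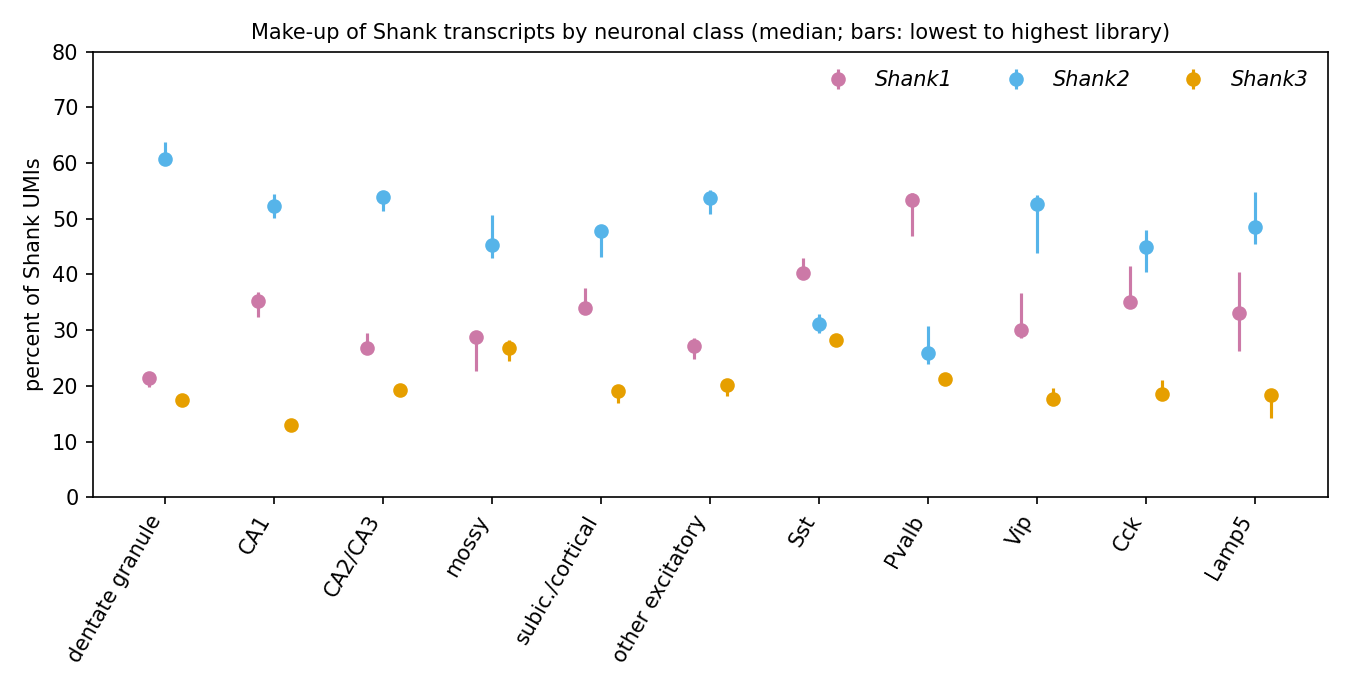
Share of the UMIs of Shank1, Shank2 and Shank3 together that each gene holds (y axis, percent) in each neuronal class (x axis; other excitatory stands for excitatory neurons of no finer type). Points are the median of the 4 libraries and bars run from the lowest to the highest library. Shank2 lies near 60.7% in dentate granule neurons and 25.8% in Pvalb neurons, and Shank1 goes the other way, from 21.4% to 53.4%.

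Within the CA2/CA3 class, a cluster of 400 nuclei with Amigo2 and Map3k15 among its leading genes differed from the main cluster in each Shank gene. Shank2 was 356, 413, 426 and 463 CPM there against 247, 255, 269 and 262 CPM in the main cluster. Shank1 was 155, 193, 191 and 206 CPM against 114, 128, 131 and 153 CPM. Shank3 went the other way, at 71.3, 58.7, 65.3 and 70.8 CPM against 96.6, 103.3, 108 and 113 CPM. The order held in every library for each of the 3 genes.

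Among the Dlg genes, Dlg4 encodes PSD-95, the most studied scaffold of the excitatory synapse. CA1 neurons held 109.6, 121, 120.3 and 132 CPM, dentate granule neurons 97.5, 119.8, 102 and 118 CPM, and CA2/CA3 neurons 75.8, 96.8, 82.5 and 92.6 CPM. Inhibitory neurons held 51.8, 58.8, 53.8 and 57.8 CPM, below every library of these 3 excitatory classes. The CA1 level was 2.06 to 2.28 times the inhibitory level within a library. Pvalb neurons, with 43.0, 52.4, 45.9 and 49.1 CPM, had the lowest median of the neuronal classes, though not separated from Vip neurons. Outside neurons, astrocytes held 70.3, 122.4, 159.1 and 108.4 CPM over all nuclei. Their median of 115.4 CPM lay between 109.8 CPM in dentate granule and 120.7 CPM in CA1 neurons.

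Dlg2, which encodes PSD-93, was lower in inhibitory than in CA1 and dentate granule neurons in every library. It held 7405, 7198, 7287 and 7341 CPM in CA1 neurons, 6617, 6806, 6785 and 6837 CPM in dentate granule neurons, and 5521, 5772, 5689 and 5596 CPM in inhibitory neurons. Cck neurons with 3883 to 4070 CPM and Lamp5 neurons with 3591 to 3879 CPM lay below every library of the other neuronal classes. Within a class the highest library was at most 1.18 times the lowest over neuronal classes, a value reached in subicular or cortical excitatory neurons.

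Dlg1, which encodes SAP97 and is found in many tissues, had its own highest level outside neurons. Oligodendrocytes held the most, with 1007, 970.5, 971.5 and 931 CPM, and the dentate granule level was 0.302 to 0.336 times that. Excitatory neurons of no finer type held 717, 580.2, 628 and 646 CPM and subicular or cortical excitatory neurons 565, 484, 500.3 and 540.3 CPM. Dentate granule neurons held 325, 293, 326 and 306 CPM against 194.5, 176, 184 and 178 CPM in CA1 neurons, a ratio of 1.67 to 1.77. Pvalb neurons were the lowest, with 132, 114.5, 95.9 and 107 CPM, overlapping Sst neurons. The CA1 class was itself uneven: its 2 clusters held 154, 137, 139 and 129 CPM and 231, 219, 230.5 and 235 CPM.

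Dlg3, which encodes SAP102, a scaffold prominent in young synapses, had the lowest CPM of the Dlg members, a measure that depends on gene length. Per kb of gene span, the median of Dlg1 was lower in Pvalb neurons, at 0.524 against 0.549 CPM per kb. Dentate granule neurons held 47.3, 54.6, 42.6 and 48.7 CPM, and its median of 48.0 CPM was the highest of the neuronal classes. Mossy cells overlapped that range, with 23.1 to 49.0 CPM from few nuclei. The level in CA1 neurons was 35.6, 40.9, 33.3 and 41.6 CPM and in CA2/CA3 neurons 31.8, 33.9, 27.4 and 32.2 CPM. Dentate granule neurons held 1.49 to 1.61 times the CA2/CA3 level within a library. CA1, CA2/CA3 and the inhibitory types were not separated from their neighbours in the order.

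The Dlgap genes, whose proteins join the Dlg and Shank layers, were both highest in Pvalb neurons among classes taken as a whole. Dlgap1 was 5236, 5827, 6313 and 6401 CPM there, 4244, 4682, 4619 and 4696 CPM in CA1 neurons, 2852, 3061, 2788 and 3138 CPM in CA2/CA3 neurons and 1560, 1811, 1741 and 1971 CPM in mossy cells. The CA1 level was 1.49 to 1.66 times the CA2/CA3 level. Dlgap2 was 2354, 2573, 2703 and 2471 CPM in Pvalb neurons and 785.9, 803, 819.6 and 836 CPM in Vip neurons, a ratio of 2.96 to 3.3. As whole classes, CA1, CA2/CA3 and dentate granule neurons were not separated for Dlgap2, at 1736 to 1885, 1775 to 1939 and 1744 to 2008 CPM. The CA2/CA3 class was itself uneven. Its cluster with Amigo2 and Map3k15 held 3125, 3376, 3395 and 3203 CPM of Dlgap2, above Pvalb neurons in every library. Its main cluster held 1633, 1754, 1803 and 1803 CPM. By class, Dlgap1 made up a median of 50.0% of the UMIs of both genes in mossy cells (47.3% to 54.1%) and 76.6% in Vip neurons (75.4% to 77.3%).

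Per kb of gene span, a scale that takes counts to grow with span, which was not tested, the order in CA1 neurons by median level was Dlgap1 with 5.46 CPM per kb, Dlg4 with 3.95, Shank1 with 3.87, Dlg2 with 3.71 and Dlgap2 with 2.41. Shank3 with 1.15, Dlg1 with 0.856, Dlg3 with 0.754 and Shank2 with 0.674 CPM per kb were lower. On this scale Dlg2, the longest gene, lies beside Dlg4, the shortest, while the long genes Shank2 and Dlg1 are low. In oligodendrocytes Dlg1 reached 4.59 CPM per kb.

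**Figure D2:**
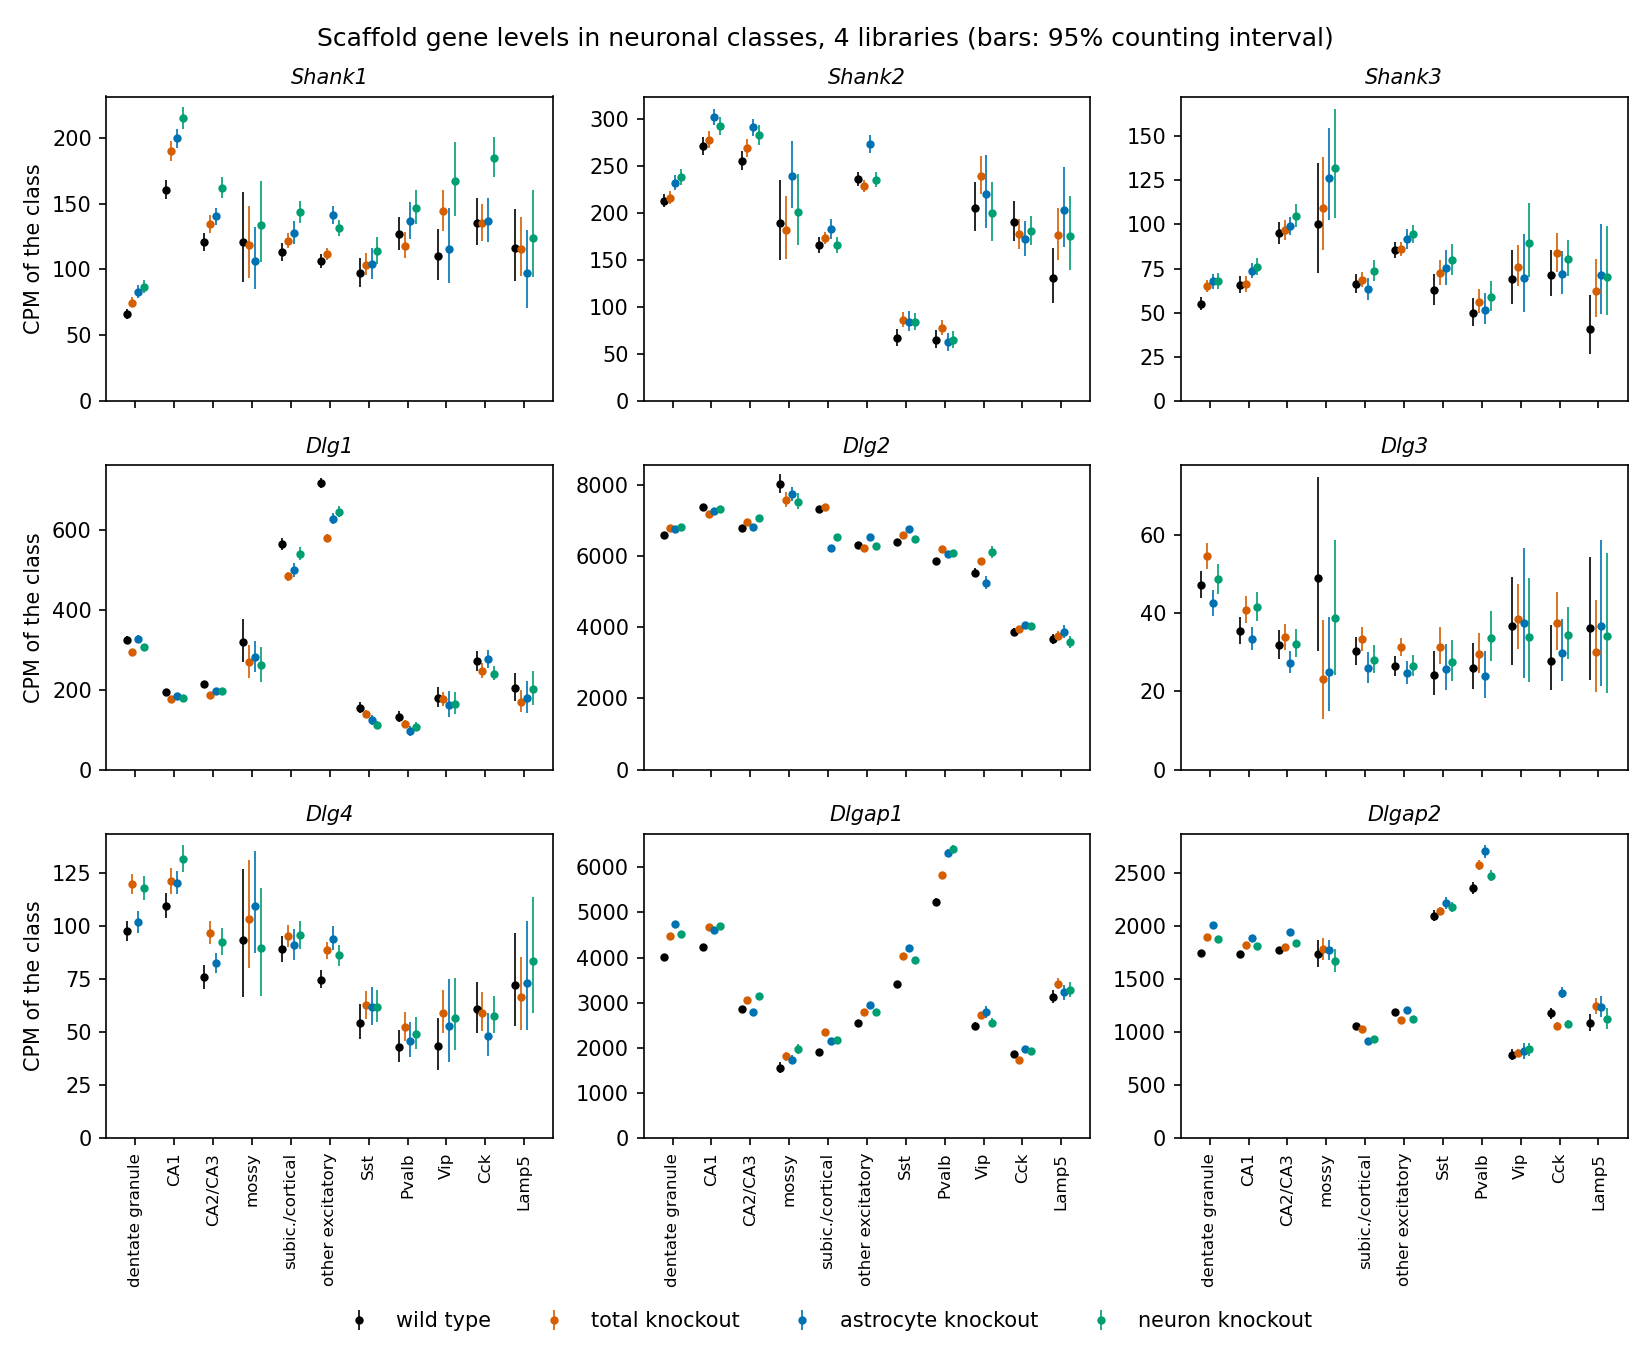
Level of each scaffold gene (y axis, CPM of the class) in neuronal classes (x axis), with 1 point per library and bars for the 95% counting interval. Among these classes Shank1 is lowest in dentate granule neurons, and Dlgap1 and Dlgap2 peak in Pvalb neurons, in each of the 4 libraries.

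The genes whose class levels ran most like each member are named by Pearson r of log2 CPM over 13 classes, among 12296 genes, as a description over classes that share libraries. For Shank1 these were Clvs1 (0.956), Lrrfip1 (0.955) and Sgsm3 (0.951), for Shank2 Efna3 (0.97), Gm14372 (0.941), which overlaps Shank2, and Msra (0.927), and for Shank3 B4galnt4 (0.985), Reep2 (0.971) and Jazf1 (0.97). Dlg4 ran with Ptms (0.942) and Spindoc (0.939). Dlg2 ran with Gnaz (0.942), Unc80 (0.941) and Osbpl6 (0.941), and Dlg3 with Prdm11 (0.961), Fbxo41 (0.956) and Gprin1 (0.951). Dlgap2 ran with Ttll11 (0.952), Cers6 (0.943) and Pja2 (0.938). Lower values were found for Dlgap1, led by Zc3h6 (0.897), A230004M16Rik (0.895) and Sptan1 (0.888), and for Dlg1, led by Gdpd5 (0.853), Ccnyl1 (0.849) and Ttpal (0.846). Among pairs of members the highest was Shank1 with Shank3 (0.91), and Dlg1 was negative with each of the other 8. The 13 classes include astrocytes and oligodendrocytes with all their nuclei. Oligodendrocytes had the highest median of Dlg1 and the lowest of each other member, so these values also hold the contrast of neurons and glia. Values over neuronal classes alone were not computed.

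Against the wild-type library, Shank1 had the largest ratio of the members in the neuron knockout library in each of the 4 main classes. Its interval overlapped that of Dlg4 in each class and that of Shank3 in all but CA2/CA3 neurons, that of Dlg3 overlapped it in CA1 and inhibitory neurons, and in the largest inhibitory cluster alone Shank1 was 0.23 beside 0.34 for Shank2, 0.34 for Shank3 and -0.48 for Dlg1. Its dentate granule level of 66.0 CPM in wild type lay below 74.8, 83.1 and 86.8 CPM in the knockout libraries, log2 ratios of 0.18 (0.07 to 0.30), 0.33 (0.21 to 0.45) and 0.40 (0.28 to 0.52). In CA1 neurons, 161 CPM in wild type lay below 190, 199.7 and 215 CPM, log2 ratios of 0.24 (0.15 to 0.33), 0.31 (0.23 to 0.40) and 0.42 (0.33 to 0.51). The neuron knockout library was the highest in both classes, as it was in CA2/CA3 neurons (0.42, 0.31 to 0.54) and inhibitory neurons (0.33, 0.22 to 0.44). In inhibitory neurons the total and astrocyte knockout libraries were not separated from wild type by counting error, at 0.05 (-0.06 to 0.15) and 0.08 (-0.05 to 0.20). By type, the neuron knockout library held 167 CPM of Shank1 against 110.0 in wild-type Vip neurons, 185 against 135 in Cck neurons, 147 against 127 in Pvalb neurons, 114 against 97.0 in Sst neurons and 124 against 116.5 in Lamp5 neurons.

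As a share of nuclei, Shank1 is given as a description, since for Dlg4 in CA1 neurons this measure went against the level. After each nucleus was thinned to 1000 UMIs, Shank1 was found in 5.99%, 7.6%, 8.56% and 9.74% of dentate granule nuclei and in 14.6%, 19.4%, 18.6% and 20.0% of CA1 nuclei. The dentate granule shares kept the order of the levels, while in CA1 nuclei the total and astrocyte knockout libraries changed places. Before thinning the shares were 40.0%, 27.8%, 38.9% and 43.5% in dentate granule nuclei and 82.1%, 69.6%, 79.0% and 83.6% in CA1 nuclei, and the shallow total knockout library was the lowest. Nuclei under 1000 UMIs were left out, which kept 1935, 4221, 2092 and 1745 dentate granule nuclei and 1005, 1944, 1789 and 1193 CA1 nuclei. In oligodendrocytes, used as a class not known to make Shank1, the thinned share was 0 of 359, 5 of 992, 2 of 34 and 0 of 49 nuclei, and a separate draw of UMIs gave 1 of 359, 1 of 992, 2 of 34 and 0 of 49. Before thinning these had a median of 1211 to 2048 UMIs, against 4369 to 7982 in dentate granule nuclei.

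Shank2 and Shank3 were also at or above wild type in each knockout library of the 4 main classes, taken as a whole. Within CA2/CA3 neurons Shank3 was so in the main cluster, while wild type was the highest library in the other two clusters, at 104 against 97.0, 95.1 and 98.5 CPM and at 71.3 against 58.7, 65.3 and 70.8 CPM. Shank2 in dentate granule neurons gave log2 ratios of 0.02 (-0.04 to 0.09), 0.12 (0.05 to 0.19) and 0.16 (0.09 to 0.23), and in CA1 neurons 0.03 (-0.04 to 0.10), 0.15 (0.09 to 0.22) and 0.11 (0.04 to 0.18). The total knockout library was thus not separated from wild type for Shank2 in those classes, while in inhibitory neurons its ratio was 0.22 (0.11 to 0.32). Inhibitory types differ in Shank2 and in number between libraries, and in the largest inhibitory cluster alone, the Sst neurons, the ratios were 0.38, 0.34 and 0.34. Cck neurons went the other way, at 190.4 CPM in wild type against 177, 171.7 and 180.4 CPM. Pvalb neurons held 65.2 against 77.3, 62.1 and 64.9 CPM and Vip neurons 205 against 239.5, 219.8 and 199.6 CPM. Lamp5 neurons held 130.7 against 176, 202.8 and 175.2 CPM. Shank3 gave 0.24 (0.12 to 0.37), 0.30 (0.17 to 0.43) and 0.30 (0.17 to 0.44) in dentate granule neurons. In CA1 neurons Shank3 was 0.00 (-0.14 to 0.14), 0.16 (0.03 to 0.30) and 0.21 (0.07 to 0.34). In inhibitory neurons it was 0.22 (0.08 to 0.37), 0.16 (-0.01 to 0.33) and 0.32 (0.17 to 0.47), and there the Shank3 ratios of the total and astrocyte knockout libraries were larger than those of Shank1.

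For Dlg4, 97.5 CPM in wild-type dentate granule neurons lay below 119.8 CPM in the total knockout and 118 CPM in the neuron knockout library, log2 ratios of 0.30 (0.21 to 0.39) and 0.27 (0.17 to 0.37), while the astrocyte knockout library was close at 0.06 (-0.04 to 0.17). The same 2 libraries were higher in CA2/CA3 neurons, with 0.35 (0.22 to 0.49) and 0.29 (0.15 to 0.43) against 0.12 (-0.01 to 0.26). These depended on the processing: the total knockout ratio was 0.14 with a per-nucleus marker gate. The neuron knockout ratio was 0.06 with nuclei thinned to 2000 UMIs. In CA1 neurons Dlg4 gave 0.14 (0.04 to 0.25), 0.13 (0.03 to 0.24) and 0.26 (0.16 to 0.37). Thinned shares of CA1 nuclei with Dlg4, 13.2%, 11.6%, 11.2% and 11% (68%, 54.3%, 58.9% and 68.2% before thinning), went against these levels, so no order of the libraries is read from them.

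Dlg1 was the member with lower levels in the knockout libraries. In inhibitory neurons it was below wild type in all 3, from 174 CPM to 157, 155 and 151 CPM, log2 ratios of -0.15 (-0.23 to -0.06), -0.17 (-0.27 to -0.06) and -0.21 (-0.30 to -0.11). CA2/CA3 neurons gave -0.19 (-0.28 to -0.10), -0.12 (-0.20 to -0.03) and -0.12 (-0.21 to -0.03), but the direction turned within that class. Dlg1 was 234 CPM against 187.5, 200.6 and 193 in its main cluster and 199 against 214, 229.7 and 222 in another cluster. The cluster with Amigo2 and Map3k15 held 127.3 against 110.9, 119.1 and 148.6 CPM. In CA1 neurons the astrocyte and neuron knockout ratios were -0.08 and -0.13. There 1 cluster held 153.6 against 136.7, 139.1 and 129.3 CPM, while the other held 230.7 against 219.2, 230.5 and 235.1 CPM. In dentate granule neurons the astrocyte knockout library did not share this, at 0.01 (-0.05 to 0.06) beside -0.15 (-0.20 to -0.09) and -0.09 (-0.14 to -0.03). With doublets kept, the ratio of the total knockout library became 0.08 in CA1 neurons, where it was -0.14 (-0.23 to -0.06) without them, and 0.02 in inhibitory neurons.

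Dlg2 differed little: its 12 log2 ratios in the 4 main classes lay between -0.04 and 0.06. Counting error is small for a gene with this many UMIs, and the ratios clear of 0 measure a difference of a few percent. Dlg3, on the X chromosome, was lowest in the astrocyte knockout library in each of the 4 classes, with log2 ratios to wild type of -0.15 (-0.31 to 0.00), -0.09 (-0.28 to 0.10), -0.22 (-0.44 to 0.01) and -0.01 (-0.27 to 0.24) in dentate granule, CA1, CA2/CA3 and inhibitory neurons. None of these 4 intervals lies clear of 0, and with male nuclei alone the ratio was 0.09 in dentate granule and 0.05 in CA1 neurons. The total knockout library was higher than wild type for Dlg3 in dentate granule neurons, at 0.21 (0.07 to 0.34).

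Dlgap1 was higher than wild type in all 3 knockout libraries in dentate granule neurons, where 4020 CPM stood against 4467, 4735 and 4514 CPM, log2 ratios of 0.15 (0.14 to 0.17), 0.24 (0.22 to 0.25) and 0.17 (0.15 to 0.18). CA1 neurons gave 0.14, 0.12 and 0.15, and inhibitory neurons 0.13, 0.23 and 0.15. The exception was the astrocyte knockout library in CA2/CA3 neurons, at -0.03 (-0.06 to -0.01). There Dlgap1 was lower in the main cluster, at 2835 against 3021 CPM in wild type, and higher in the other two, at 2629 against 2399 and 2847 against 2748 CPM. Dlgap2 was highest in the astrocyte knockout library in each of the 4 main classes, with log2 ratios of 0.20 (0.18 to 0.23), 0.12 (0.09 to 0.14), 0.13 (0.10 to 0.16) and 0.18 (0.15 to 0.21). In inhibitory neurons the other two knockout libraries were nearer to wild type for Dlgap2, at 0.03 and 0.04.

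**Figure D3:**
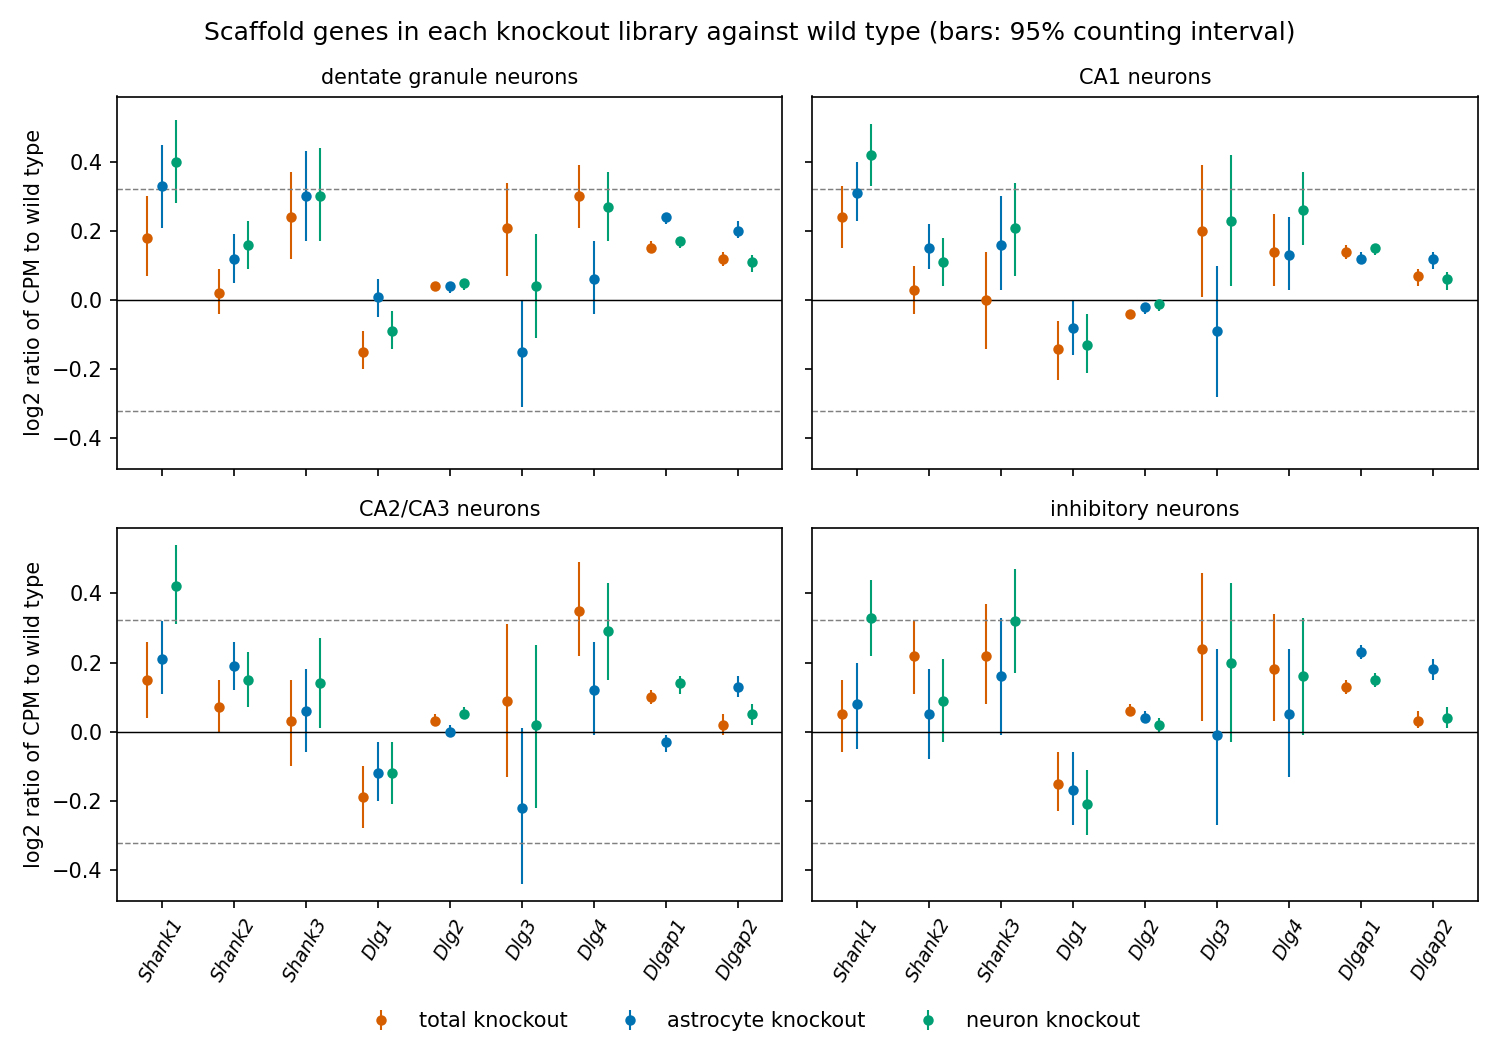
Log2 ratio of each knockout library to the wild-type library (y axis) for the 9 scaffold genes (x axis) in the 4 main neuronal classes, with bars for the 95% counting interval and lines at the fold used for counts, a log2 ratio of 0.32 either way. Shank1 of the neuron knockout library lies above the line in each class, between 0.33 and 0.42, and Dlg1 lies at or below 0.01 throughout.

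Few members passed the fold used for counts, a log2 ratio of 0.32 in either direction, and their counts are given beside the share of all genes past it. In dentate granule neurons 0, 1 and 1 of the 9 members passed in the total, astrocyte and neuron knockout libraries, where 22.1%, 23.0% and 22.4% of the 13209 genes with at least 100 UMIs did, and the 1 member was Shank1 in both. In the largest dentate granule cluster alone, Shank1 of the astrocyte knockout library was 0.25 and no longer past the fold, while Shank3 was 0.41 and past it. In CA1 neurons 0, 0 and 1 passed against 22.1%, 18.9% and 21.5% of 12640 genes, and in CA2/CA3 neurons 1 (Dlg4), 0 and 1 against 24.0%, 18.5% and 22.9% of 12566 genes. In inhibitory neurons the counts were 0, 0 and 1 against 23.1%, 24.1% and 24.3% of 13177 genes. The 1 member in the neuron knockout library was Shank1 in each class. The shares over all genes include many with few UMIs, and over genes with at least 1000 UMIs they were 6.21% to 12.2%.

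The median log2 ratios of the members were 0.15, 0.12 and 0.16 in dentate granule neurons, 0.07, 0.12 and 0.15 in CA1 neurons, 0.07, 0.06 and 0.14 in CA2/CA3 neurons and 0.13, 0.05 and 0.15 in inhibitory neurons, while the medians over all genes lay between -0.06 and -0.01. The wild-type library was the lowest of the 4 in each of the 4 main classes for Shank1, Shank2, Shank3, Dlg4 and Dlgap2, 5 of 9 members, and 3.80% of 11457 genes had this pattern. The members were chosen with earlier results of these data known, so their values beside all genes are a description. The pattern holds for classes as a whole, with all nuclei of a class together. Within CA2/CA3 neurons it turned for Shank3 in 2 of 3 clusters, and Dlgap2 in 1 cluster was 1430 CPM in wild type against 1332, 1472 and 1384 CPM. For Dlg4 the astrocyte knockout library lay below wild type in 1 CA2/CA3 cluster, at 93.5 against 95.7 CPM, and in 1 dentate granule cluster, at 99.2 against 103.8 CPM. In Cck neurons wild type was the highest library for Shank2, at 190.4 against 177, 171.7 and 180.4 CPM. The same was so there for Dlg4, at 60.9 against 59, 48.12 and 57.75 CPM. Other inhibitory types and members also turned. The total knockout library lay below wild type for Dlgap2 in Cck neurons (1052 against 1175 CPM) and Shank1 in Pvalb neurons (118.2 against 126.8 CPM). In female nuclei alone the pattern held for none of the 5 members. The astrocyte knockout library lay below wild type for Shank1 in inhibitory (116.6 against 117.6 CPM), Shank3 in CA2/CA3 (94.81 against 98.75) and Dlg4 in dentate granule neurons (96 against 105.8). The neuron knockout library did for Shank2 in CA1 (283.3 against 290.1) and Dlgap2 in inhibitory neurons (1743 against 1767). Over all nuclei, no member had wild type as the highest library in all 4 classes, which was so for 11.2% of the 11457 genes. The 3 comparisons share 1 wild-type library, so a property of that library and a difference between genotypes cannot be told apart.

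The share of male nuclei differed between libraries, and with male nuclei alone Shank1 kept its direction. Its log2 ratios in dentate granule neurons were then 0.31, 0.46 and 0.58, and those of the neuron knockout library in CA1, CA2/CA3 and inhibitory neurons were 0.46, 0.54 and 0.36. Ratios with counting intervals were not computed for female nuclei alone, of which the total knockout library held 3. In those of the wild-type, astrocyte and neuron knockout libraries Shank1 was 71.9, 78.6 and 87.5 CPM in dentate granule neurons. It was 164.9, 201.7 and 211.9 CPM in CA1 and 124.4, 135.8 and 154.9 CPM in CA2/CA3 neurons. In inhibitory neurons it was 117.6, 116.6 and 148.1 CPM, so the astrocyte knockout library was not above wild type. Dlg3 of the total knockout library in dentate granule neurons was 0.34 with male nuclei and Dlg4 of the neuron knockout library 0.40. In the wild-type library, female dentate granule nuclei held 71.9 CPM of Shank1 against 59.5 in male nuclei (log2 0.27, 0.09 to 0.46) and 53.1 CPM of Dlg3 against 43.1 (0.30, 0.08 to 0.52). The astrocyte and neuron knockout libraries gave -0.06 (-0.25 to 0.13) and -0.02 (-0.21 to 0.16) for Shank1 and -0.23 (-0.50 to 0.04) and 0.10 (-0.15 to 0.35) for Dlg3. Whether male and female nuclei of a library came from several animals of each sex is not given by the labels.

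The partners of these scaffolds were read from 36 genes of the excitatory postsynapse, of which 35 could be compared. In dentate granule neurons 2, 5 and 4 of them were past the same fold upward in the total, astrocyte and neuron knockout libraries and 0 downward. Over all 13209 genes 791, 997 and 1057 were past it upward and 2127, 2045 and 1896 downward. Dlgap3, a relative of Dlgap1, was among them in all 3, with 74.8 CPM in wild type against 96.7, 96.9 and 97.9 CPM, log2 ratios of 0.37, 0.37 and 0.39. Baiap2, which links scaffolds to actin, was at 0.33 in the total knockout, Homer3 at 0.52 and Grip1 at 0.39 in the astrocyte knockout, and Begain, a binding partner of PSD-95, at 0.47 and Dlgap4 at 0.34 in the neuron knockout library. Cacng2 at 0.34 and Dlgap4 at 0.33 in the astrocyte knockout and Iqsec2 at 0.33 in the neuron knockout library complete the counts and were named after their values were seen. The list's median was 0.06, 0.09 and 0.07, nearer to 0 than the members' medians in that class.

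In CA1 neurons 1, 3 and 2 partners were past the fold upward and 1, 2 and 0 downward, beside 823, 872 and 1009 of 12640 genes upward and 1974, 1518 and 1706 downward. Cacng2, which encodes stargazin, a receptor-associated protein that Dlg4 binds, was at 0.54, 0.33 and 0.33. Homer1, the Shank-binding adaptor, was at 609 CPM in wild type against 476 in the total knockout (-0.35), 505 in the astrocyte knockout and 649.6 in the neuron knockout library. Cttn (0.43), Homer3 (0.42), Magi1 (-0.34) and Lin7a (-0.33) completed the astrocyte knockout and Begain (0.33) the neuron knockout library. Some of these intervals came close to 0, at 0.04 to 0.80 for Homer3 and 0.08 to 0.58 for Begain. Those of Cacng2 were 0.10 to 0.56 in the astrocyte and 0.09 to 0.57 in the neuron knockout library. CA2/CA3 neurons gave 1, 1 and 0 upward and 1, 2 and 0 downward, beside 1039, 937 and 1131 of 12566 genes upward and 1978, 1388 and 1744 downward. The partners were Dlgap3 at 0.33 and Lin7b at -0.51 in the total knockout library and Homer3 at 0.37, Cnksr2 at -0.36 and Homer1 at -0.35 in the astrocyte knockout library.

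In inhibitory neurons 0, 2 and 1 partners were past the fold upward and 1, 3 and 5 downward. All genes leaned the same way there, with 693, 824 and 916 of 13177 upward and 2346, 2354 and 2282 downward, so the lean is not read as a result about the partners. Tanc1, a scaffold that binds PSD-95, was 18.9 CPM in wild type and 7.75 CPM in the neuron knockout library, from 185 and 92 UMIs, a log2 ratio of -1.28. It was 29.3 against 4.85 CPM in Pvalb neurons and 20.8 against 5.27 CPM in Sst neurons. Summed over Cck, Vip and Lamp5 neurons, Tanc1 was not lower in the neuron knockout than in the wild-type library. The fall was thus found in Pvalb and Sst neurons and was not general to inhibitory types. In the astrocyte knockout library Tanc1 was instead at 0.49 over the whole inhibitory class. Begain was at 0.62 and 0.68 in the astrocyte and neuron knockout libraries, Magi3 at -0.44 and -0.43, Lin7b at -0.46 (-0.82 to -0.09) in the total knockout, Homer1 at -0.36 and Cript at -0.33 (-0.65 to -0.01) in the astrocyte knockout, and Lin7c at -0.46 in the neuron knockout library. Baiap2 at -0.42 and Lin7b at -0.32 complete the neuron knockout count and were named after their values were seen.

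The scaffold of inhibitory synapses, 7 genes led by gephyrin (Gphn), served as a set beside the excitatory one. Of these, 6 could be compared in dentate granule neurons and 7 in the other 3 classes, where 18.5% to 24.3% of all genes were past the fold. None of the 6 passed it in dentate granule neurons in any of the 3 comparisons. In CA1 neurons 1, 0 and 1 passed, Insyn2a at 0.42 (-0.03 to 0.88), named after its values were seen, and Nlgn2 at 0.33 (0.17 to 0.49), in CA2/CA3 neurons Insyn2a alone at -0.37 (-0.69 to -0.06) in the total knockout library, and in inhibitory neurons Insyn1 alone at -0.37 (-0.70 to -0.03) in the total knockout library.

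Outside neurons, Dlg2 in oligodendrocytes differed widely between libraries in the share of nuclei with a UMI, and it was described after its values had been seen. By level over all oligodendrocytes its highest library was 1.86 times the lowest. That was less than for Dlgap2 (18.9), Shank2 (10.7), Dlg4 (9.82) and Dlgap1 (7.74). The class held 365, 1374, 40 and 53 nuclei. Transcripts of neurons can reach droplets that hold a glial nucleus, and the 6 excitatory markers summed to 248.5, 68.9, 556 and 321 CPM in this class, with a UMI of at least 1 in 17.3%, 3.42%, 27.5% and 11.3% of its nuclei. Levels in glia are therefore given in nuclei without any UMI of these markers, 302, 1327, 29 and 47 oligodendrocytes.

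In those nuclei Dlg2 was counted at 1832, 1286, 848 and 0 CPM, where a count of 0 in the neuron knockout library allows up to 32.6 CPM (3 UMIs). It was found in 278 of 302 nuclei of the wild-type library (92.1%), 896 of 1327 of the total knockout (67.5%), 13 of 29 of the astrocyte knockout (44.8%) and 0 of 47 of the neuron knockout library, which allows a share of up to 6.38% (3 nuclei). In nuclei thinned to 1000 UMIs the Dlg2 shares were 80.8% (75.9% to 85.1%), 68.5%, 43.5% (23.2% to 65.5%) and 0% (0 of 43, which allows up to 6.98%). Dlg1 in the same thinned nuclei was found in 62.6%, 60.2%, 56.5% and 65.1%, and its level was 1034, 983, 1130 and 1141 CPM. Dlg2 thus differed between libraries beyond counting error, while the intervals of the Dlg1 shares overlapped.

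Over all oligodendrocytes, excitatory UMIs or not, Dlg2 was found in 92.9%, 68.6%, 55% and 9.43%, with a median of 4, 1, 1 and 0 UMIs per nucleus. The 5 nuclei of the neuron knockout library that held it, each with an excitatory marker UMI, gave the class a level of 1362 CPM, with up to 54 UMIs in a nucleus, so the level alone does not show the difference. Split by sex without such nuclei, Dlg2 was found in 0 of 13 female and 0 of 16 male nuclei of the neuron knockout library, against 91.3% and 93.6% in wild type. Defining markers of oligodendrocytes were present in all 4 libraries: after thinning, Mbp was found in 98.7%, 98.6%, 100% and 97.7%, Mog in 71.0%, 69.6%, 78.3% and 65.1%, and Mag in 66.7%, 74.3%, 73.9% and 79.1%.

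Of 109 genes found in at least 60% of thinned wild-type oligodendrocytes, 2 had a share at least 5 times lower in the neuron knockout library, Dlg2 and Slc8a1. The genes were picked by a high wild-type share, and genes higher in the neuron knockout library were not counted. This count therefore does not show how often genes differ between the 2 libraries. Slc8a1, which encodes a sodium-calcium exchanger, was found in 65.0%, 65.2%, 0% (0 of 23, which allows up to 13%) and 0% (0 of 43). In CA1 neurons Slc8a1 was at 2319, 2477, 2243 and 2225 CPM, so its transcripts were counted in neurons of all 4 libraries. Both genes were named after their values were seen, and the cause was not tested. In oligodendrocyte precursors, the dividing stage before oligodendrocytes, Dlg2 was found in 92.7%, 91.6%, 71.4% (5 of 7) and 72.7% (8 of 11) of thinned nuclei without excitatory markers, so it was counted there in every library, from few nuclei in the astrocyte and neuron knockout.

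**Figure D4:**
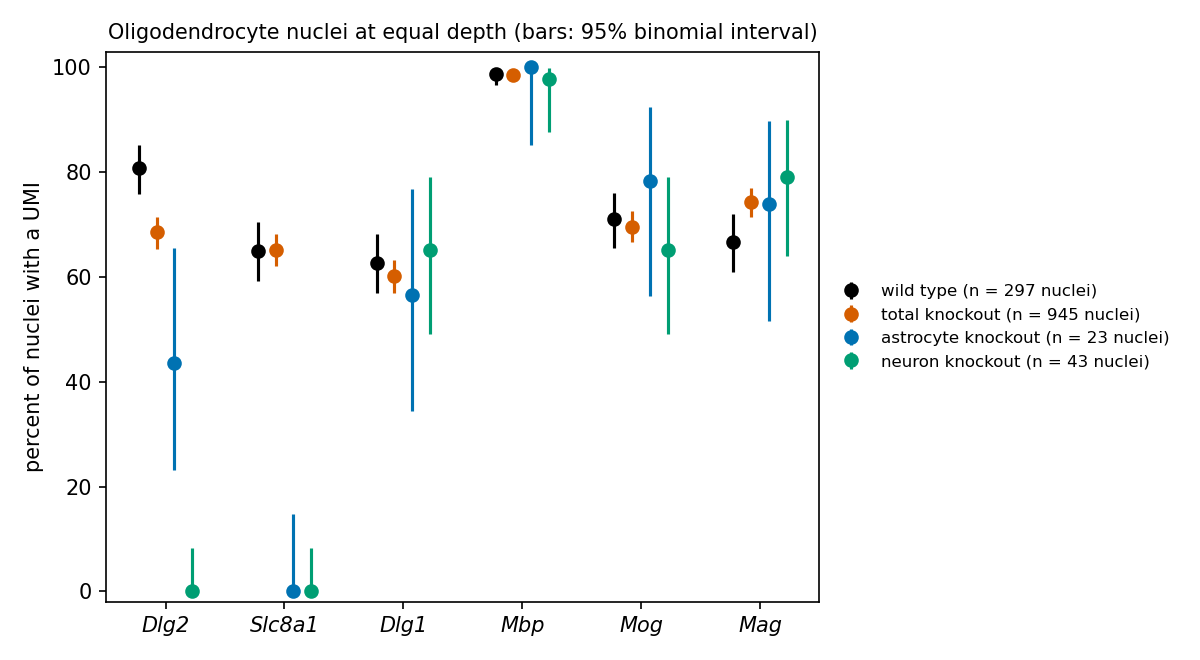
Share of oligodendrocytes with a UMI (y axis, percent of nuclei thinned to 1000 UMIs, without excitatory marker UMIs) for Dlg2, Slc8a1, Dlg1 and the markers Mbp, Mog and Mag (x axis), with 1 point per library and exact 95% intervals. Dlg2 goes from 80.8% in wild type to 0% in the neuron knockout library, while Dlg1 stays between 56.5% and 65.1%.

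The other members were scarce in oligodendrocytes once nuclei with excitatory markers were left out. Dlgap1 was found in 4.97%, 2.49%, 10.3% and 0%, and its wild-type level was 74.6 CPM against 405 CPM over all oligodendrocytes. In astrocytes Dlgap1 was counted at 1069, 939, 945 and 737 CPM in 78%, 56%, 55% and 73.2% of nuclei without these markers, while Dlg2 was at 75.8, 116, 135 and 0 CPM in 14.0%, 12.1%, 20.0% and 0% (0 of 41, which allows up to 7.32%). Shank1, Shank2 and Shank3 gave at most 4 UMIs each in any library of these astrocytes. Dlg4 was found in 13% (6 of 46), 15.1% (11 of 73), 5.26% (1 of 19) and 13.2% (5 of 38) of them after thinning to 1000 UMIs. Dlgap2 in oligodendrocyte precursors was 73.8, 59.96, 1200 and 183 CPM over all nuclei, but 76.7% of the 30 precursors of the astrocyte knockout library held an excitatory UMI, and without such nuclei it was 32.1, 16.5, 61.3 and 170.5 CPM, from 1 UMI and 5 UMIs in the last 2 libraries. The part of neuronal RNA in these glial levels was not tested.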

How the data were processed

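Nuclear RNA of mouse hippocampus was measured in 4 libraries built with a 10x Genomics kit for chromatin and RNA of the same nuclei, per the labels' protocols; the RNA counts alone were analysed. The values the authors deposited are raw UMI counts for each gene in each barcode, not normalized. Before any filter used here, the lowest number of detected genes per barcode was 400 or 401 in each library. The highest was 5994 to 5998, so barcodes with fewer or more genes were absent. The effect of this on deep classes was not tested. Cell Ranger ARC 2.0.0 and the build mm10 are named in the submitters' processing notes. Not given in the sources used here were the annotation and whether introns or strand were used in the counting.

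Libraries were joined on the 20211 symbols listed in all 4, of 22989 listed in any. Kept nuclei held 500 or more detected genes and no more than 5% mitochondrial UMIs, and doublets called within each library by Scrublet (scanpy 1.11.5, expected rate 0.8% per 1000 barcodes) were removed, leaving 8969, 23625, 10044 and 8682 nuclei in the order wild type, total, astrocyte and neuron knockout. Nuclei were clustered from log counts at a common total of 10000, with 2000 variable genes, 30 principal components, 15 neighbours and the Leiden method of leidenalg 0.10.2 and igraph 0.11.9 (resolution 1), with the members, the partner lists, sex genes, mitochondrial genes and Mgll left out. A cluster took a name from at least 3 of its type's markers, each in at least 10% of its nuclei and at least 2-fold above the rest, unless its leading 10 genes held more markers of another type or 75% or more of another type's markers were present. Clusters close to 2 types, shallow clusters without a leading marker of their own, and CA1 clusters without Fibcd1 also did not pass. Excitatory neurons of no finer type were named by a second rule from clusters left over. These held at least 5 of 6 excitatory markers, with Slc17a7, at least 2-fold above inhibitory and glial clusters. The naming rule was set after clusters had been seen. Of 43 clusters, 13 with 7090 nuclei stayed unnamed. A per-nucleus marker gate was run as an alternative.

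UMIs were summed per class and library and expressed as CPM, computed here. Sums carry exact Poisson intervals, ratios exact conditional binomial intervals and shares exact Clopper-Pearson intervals, at a level of 95% and for counting error alone (scipy 1.17.1, numpy 2.4.6, pandas 2.3.3, matplotlib 3.10.9, Python 3.11.15). Limits given beside a value of 0 are from 3 counts. For shares they lie below the upper end of the exact interval, 6.98% against 8.22% for Dlg2 in 0 of 43 nuclei. No test was made, since each genotype has 1 library. A gene was counted as past the fold at 1.25-fold or more in either direction (a log2 ratio of 0.32), among genes whose UMIs in the class summed to at least 100 over all libraries. The limit was applied before rounding, so a ratio printed as 0.32 can lie on either side of it. The ratio and interval code was checked on simulated data. Positions and spans are from GENCODE M21 (GRCm38), promoters from RefSeq. Promoter windows for Shank1, Shank2 and Dlgap2 were not used here.

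The members and lists were chosen with earlier results of these data known. Genes named are the 9 members, partner-list genes past the fold with an interval clear of 1 (at most 3 per direction and comparison), and the 3 genes most like each member over 13 classes (log2 of mean CPM plus a pseudocount of 1, genes with at least 1000 UMIs). Genes named outside this rule are marked as such. One gene that the rule names is not reported here. Alternatives were doublets kept, no barcode filter, median-ratio scaling, the mean of per-nucleus CPM, nuclei thinned to 2000 UMIs, male nuclei, the marker gate, the largest cluster of a class, resolution 0.5, members allowed in clustering, and 1.5-fold. Glial levels in nuclei without excitatory marker UMIs were added after values were seen.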

Additional observations from a re-analysis of the deposited data

How the results depend on the processing

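Counts of members past the fold (a log2 ratio of 0.32 either way) are small, so 1 gene near the limit changes them; each is given as the main count and then the count under the alternative, for the total, astrocyte or neuron knockout library. In dentate granule neurons the total knockout went from 0 to 1 with median-ratio scaling and 2 with male nuclei, the astrocyte knockout from 1 to 2 with median-ratio scaling or per-nucleus means and 0 at 1.5-fold, and the neuron knockout from 1 to 2 with median-ratio scaling, male nuclei or the largest cluster, 3 with per-nucleus means and 0 at 1.5-fold. In CA1 neurons the total knockout went from 0 to 2 with thinned nuclei, the astrocyte knockout from 0 to 1 with median-ratio scaling, thinning, male nuclei or the marker gate, and the neuron knockout from 1 to 2 with thinning or male nuclei and 0 at 1.5-fold. In CA2/CA3 neurons the total knockout went from 1 to 0 with thinning, male nuclei, the marker gate or 1.5-fold, the astrocyte knockout from 0 to 2 with male nuclei and 1 with the gate, and the neuron knockout from 1 to 2 with per-nucleus means or male nuclei and 0 at 1.5-fold. In inhibitory neurons the total knockout went from 0 to 1 with thinning and 2 with the largest cluster, the astrocyte knockout from 0 to 1 with the largest cluster, and the neuron knockout from 1 to 2 with doublets kept, no barcode filter, median-ratio scaling, per-nucleus means, the gate or members allowed in clustering, 3 with the largest cluster and 0 at 1.5-fold. Shank1 of the neuron knockout library was past the fold under 10 of 10 alternatives in dentate granule (log2 0.38 to 0.58), CA1 (0.37 to 0.67) and CA2/CA3 neurons (0.41 to 0.54). In inhibitory neurons its alternatives ran from 0.23 to 0.38, and it was not past the fold under all of them. Female nuclei alone were not among the alternatives. Dlg4 of the total knockout library in CA2/CA3 neurons was past it under 7 of 10 (0.14 to 0.44). Male nuclei moved 36 of 108 member ratios outside their counting interval and changed the sign of 10; resolution 0.5 moved 0. The causes were not tested. No paired analysis was possible because each genotype has 1 library. The number of nuclei limits glia of the astrocyte and neuron knockout libraries, and depth per nucleus those of the total knockout library.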
